A study of Drosophila melanogaster with 3 samples.

Results

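Relaxed distal peaks are weak peaks of Deaf1 in fly embryos that lie far from genes' starts and outside the reproducible set. They are the peaks of the pooled list that touched no interval of the deposited irreproducible discovery rate (IDR) set, a set ranked by agreement between replicates. They also had their summit over 2000 bp from each transcription start site (TSS) of a protein-coding gene. This rule selected 11919 of the 30000 pooled peaks (39.7%), and 64.2% of the 18557 pooled peaks that touched no IDR interval. The peaks were recorded by chromatin immunoprecipitation and sequencing (ChIP-seq) in whole Drosophila melanogaster embryos of both sexes, collected at 0 to 24 h. The flies were a transgenic line that stably expressed Deaf1 fused to GFP at its C terminus, and the fusion protein was recovered with an anti-GFP antibody. There was 1 group of 3 biological replicates, with no other genotype or treatment, and per the file headers each list was called against a control alignment. Whole embryos mix all tissues and stages of that period, so a site used in few cells and a site weakly bound in many cannot be told apart.

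Deaf1 is a transcription factor that contacts DNA through a SAND domain, and its sites contain the core TTCG, often followed by G. It was first described at an autoregulatory enhancer of the homeotic gene Deformed. In flies it takes part in embryonic development and in the control of immune genes. Many developmental enhancers of the fly genome lie away from promoters, often in long introns. A weak ChIP-seq peak may be a weak site, a site of few cells or background, and a relaxed list can hold all of these.

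The sequences show how differently the word TTCGG was placed at these peaks. The first 3 are the relaxed distal peaks with the most TTCGG words among those whose sequence is given, with 4 each within 50 bp of the summit. The other 2 are the member of highest signal, which had none, and the only one among the 10 of highest signal that had any. Each is the plus strand of the dm6 assembly, 50 bp on each side of the summit, from the RefSeq copy of the genome. Capitals mark TTCGG and its reverse complement CCGAA.
eyg, chr3L:12459095-12459195: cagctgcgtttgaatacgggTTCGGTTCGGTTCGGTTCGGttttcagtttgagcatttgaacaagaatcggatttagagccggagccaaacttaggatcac
Atf3, chrX:1268909-1269009: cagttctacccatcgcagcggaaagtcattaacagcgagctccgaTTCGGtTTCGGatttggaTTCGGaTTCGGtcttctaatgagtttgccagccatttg
grn, chr3R:8187344-8187444: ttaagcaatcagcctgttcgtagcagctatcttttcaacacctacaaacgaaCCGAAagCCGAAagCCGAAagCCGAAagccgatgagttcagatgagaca
CG12290, chr3R:26234947-26235047: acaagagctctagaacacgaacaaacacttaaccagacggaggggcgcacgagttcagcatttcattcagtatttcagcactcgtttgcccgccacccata
Eip93F, chr3R:21968088-21968188: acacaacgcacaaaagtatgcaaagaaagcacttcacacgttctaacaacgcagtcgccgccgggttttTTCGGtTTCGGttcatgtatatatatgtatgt

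The words stood in tandem at the first 3. The members named for most words were limited to 6, with ties broken by pooled signal. The other 3 of these also had 4 words each and lay nearest to jing, CG33467 and CG10104. The intergenic peak 8876 bp downstream of a start of eyg, which encodes a Pax-type transcription factor, had its 4 words end to end. The peak in an intron of Atf3, a bZIP factor, had its 4 words as a pair of closely spaced doublets. The intergenic peak 5950 bp upstream of grn, a GATA factor, had 4 words of the other strand at a regular spacing. The replicates placed signal at these sites in different amounts. At the eyg peak the replicate signal, divided by the median signal of that replicate's list, was 0.875, 1.95 and 1.26 in replicates 1, 2 and 3. At the Atf3 peak it was 1.20, 0.858 and 0.827, and at the grn peak 1.27, 0.619 and 1.499. The replicate values of the 3 sites overlapped, so these sites are not ordered by signal.

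The IDR set held the strongest peaks of the pooled list, so the members were in effect chosen by their signal, the peak caller's own value for a peak. Their signal is therefore a description. It ran between 38.5 and 256.055 with a median of 79.3 and quartiles of 54.3 and 124.3. The 2688 IDR summits beyond the same distance from a start, called distal IDR summits here, had a median of 440.0. The 3 members just inside the limit had a signal of 256.055, 256.02 and 255.939, and the 3 distal IDR summits just outside it had 256.154, 256.232 and 256.279. The nearest summits on either side of the distance limit lay 2001 and 2000 bp from a TSS. A further 1005 distal peaks of lower signal than the IDR set were left out because they touched an IDR interval.

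The deposited −log10 q-value of the members ranged between 0.3996 and the list's ceiling of 4.39. The q-value was 0.05 or less for 6181 members (51.9%), and 1450 (12.2%) stood at the ceiling. Most members were intervals of one width: 11328 (95.04%) were 470 bp wide, 576 were narrower and 15 wider. The narrower ones had a median signal of 195.7, against 76.4 for those of 470 bp.

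The strongest members lay at genes of different kinds. Of the 10 with highest signal 9 had no TTCGG within 50 bp, near the share over all members, 78.7% of which had none. The nearest genes of these 10 were CG12290, CheA75a, CG33912, Pdp1, Glut4EF, haf, Prosap, bab1, dar1 and Eip93F. Pdp1 encodes a bZIP factor of the circadian clock, bab1 a BTB-domain factor of limb patterning, dar1 a Krüppel-like factor of dendrite growth and Eip93F a steroid-response factor. The peak in an intron of Pdp1, 2944 bp downstream of a start, had 0.559, 2.70 and 1.68 times the list median in replicates 1, 2 and 3. That is a wide spread, with replicate 1 below its list's median. The peak in an intron of bab1 had 1.65, 2.22 and 1.67 times the median, and was above it in each replicate. The Eip93F peak, 4241 bp upstream of a start and inside an intron of the same gene, had 1.53 and 1.92 times the median in replicates 2 and 3 and was in no peak of replicate 1.

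The 5 weakest members were nearest to Jupiter, tun, Eaf6, jb and CG15233, at a pooled signal of 38.5. The peaks at Jupiter and tun were held by replicate 1 alone, at 0.403 times its list's median in both, and the peak at Eaf6 by replicate 3 alone, at 0.405 times. The peak at jb was held by replicates 2 and 3, at 0.619 and 0.367 times the median, and the peak at CG15233 by replicates 1 and 3, at 0.407 and 0.412 times.

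Replicate lists held most members, and the share rose steeply with signal. The pooled summit lay inside a peak of all 3 replicates for 6222 members (52.2%, 95% Clopper-Pearson interval 51.3 to 53.1), of 2 replicates for 3566 (29.9%), of 1 for 1843 (15.5%) and of none for 288 (2.42%). All 3 replicates held 68% of the whole pooled list and 96.3% of the distal IDR summits. Since the lists behind the rule share reads with the replicates, this is a description with no test. Intervals here and below cover counting error over peaks, and neighbouring peaks are not independent.

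From the weakest quintile of members to the strongest, all 3 replicates held 12.5%, 22.9%, 51.5%, 80.8% and 93.3%. In the weakest quintile, where the signal was at most 50.8, 10.7% of summits were in no replicate peak and 45.1% in a single one. Replicates 1, 2 and 3 held 78.0%, 79.3% and 74.7% of the members, a mean of 77.3% ± 2.37 (SD, n = 3). The members held by one replicate alone came from each of them, with 674, 686 and 483 from replicates 1, 2 and 3. No single library supplied them, though replicate 3 supplied fewest.

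**Figure D1:**
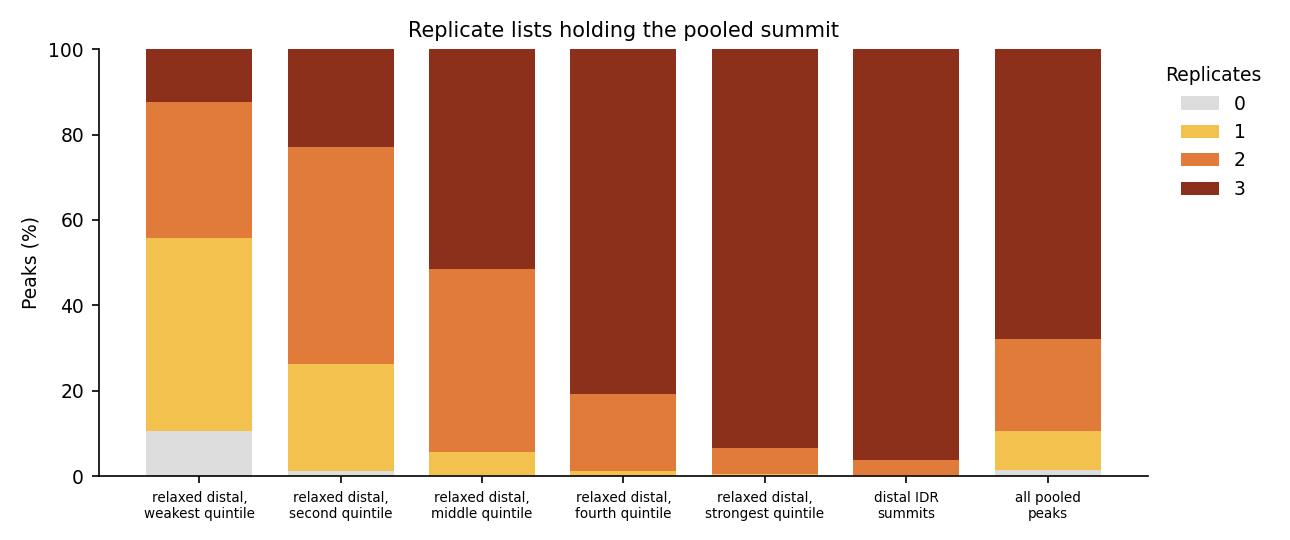
Share of peaks (%) whose pooled summit lay inside a peak of 0, 1, 2 or 3 replicates, for relaxed distal peaks in quintiles of signal (classes of equal size), for the 2688 distal IDR summits and for all 30000 pooled peaks. The share in 3 replicates was 12.5% in the weakest quintile and 93.3% in the strongest, against 96.3% of distal IDR summits.

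Among the 6222 members in all 3 replicates, the ranks of signal agreed only in part. Spearman's correlation across these members was 0.452 between replicates 1 and 2, 0.445 between 1 and 3 and 0.447 between 2 and 3. The rule in effect capped the pooled signal of these peaks, which ran between 38.5 and 256.055, and the pooled list shares reads with each replicate. How either bears on the correlations was not tested. Their signal had a median of 0.839, 0.828 and 0.843 times the list median in replicates 1, 2 and 3, so the replicates placed them at a like level of their own lists.

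The Deaf1 word was more frequent at the summits of these weak peaks than beside them. TTCGG, on either strand, was present within 50 bp of 2537 summits (21.3%, 95% interval 20.6 to 22.0), against 1942 windows of equal length centred 300 bp to the right (16.3%, 15.6 to 17.0). Over all such windows of distal sequence the share was 15.3%. The excess of 4.99 percentage points passed an exact two-sided McNemar test over members (adjusted p = 9.4e-22 over 16 listed words). This test and the McNemar tests below treat each member as a unit, though neighbouring members are not independent. In the replicates' own relaxed distal peaks, which number 11167, 11606 and 11361, the excess was 4.09, 3.58 and 4.52 points. It had the same direction in each, with a mean of 4.06 ± 0.466 (SD, n = 3). The exact sign-flip permutation test over 3 replicates gave p = 0.25, the smallest it can give.

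The excess was smaller than at the reproducible sites. Distal IDR summits had TTCGG at 27.6% of summits and 16.1% of flanks, an excess of 11.5 points, while promoter peaks outside the IDR set (2727, within 500 bp of a TSS) had 18.4% at summits and 15.4% in flanks. In the replicates' lists, distal peaks that touched an IDR interval had an excess of 9.40, 9.82 and 9.81 points. The excess at relaxed peaks minus that at IDR peaks was −5.31, −6.23 and −5.29 points in replicates 1, 2 and 3. The mean difference was −5.61 ± 0.538 points (SD, n = 3, two-sided exact sign-flip permutation test, p = 0.25, the smallest possible).

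**Figure D2:**
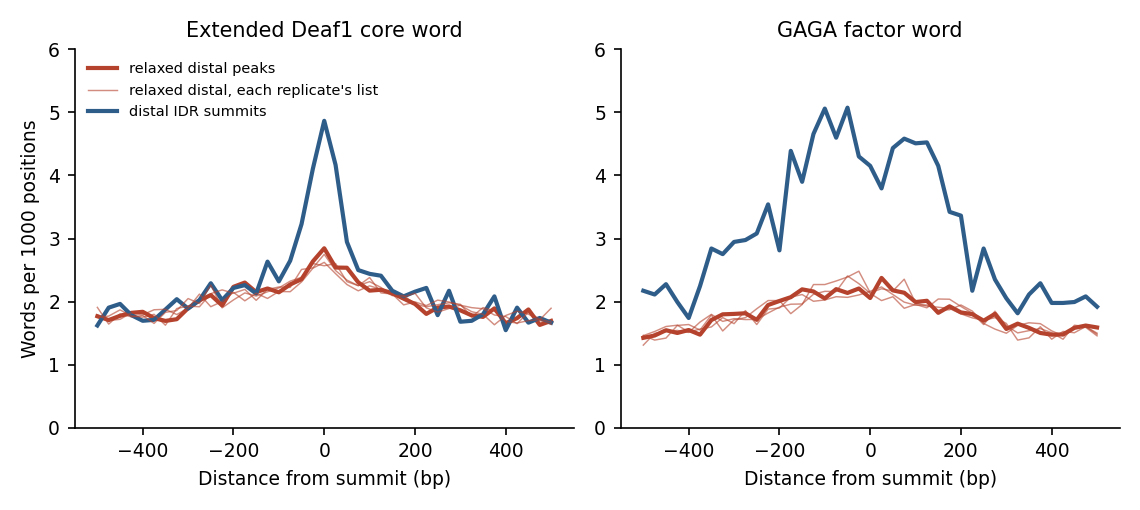
Words per 1000 positions against distance from the summit (bp), for relaxed distal peaks (thick red line), the same in each replicate's own list (thin red lines) and distal IDR summits (blue line). In the summit bin the extended Deaf1 core word stood at 2.85 for relaxed distal peaks and 4.87 for distal IDR summits, and the GAGA factor word at 2.06 and 4.15. The GAGA factor word was highest beside the summit, at 2.38 (25 bp to the right) and 5.07 (50 bp to the left). In the replicates' relaxed lists the side of its highest bin differed.

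Along the peak, the frequency of TTCGG was highest in the bin that holds the summit. In bins of 25 bp it had 2.85 occurrences per 1000 positions at the summit and 1.76 beyond 300 bp, a ratio of 1.62, against 4.87, 1.79 and a ratio of 2.71 at distal IDR summits. The level far from the summit was thus similar in both sets, and the gap between them was widest at the summit. In the replicates' relaxed lists the summit level was 2.57, 2.62 and 2.75, and in replicate 1 the bin 25 bp to the left was slightly higher, at 2.60.

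The excess was present at every level of signal. From the weakest quintile to the strongest, TTCGG stood at 20.4%, 20.4%, 20.9%, 22.1% and 22.6% of summits, against 16.7%, 15.6%, 15.4%, 17.5% and 16.2% of flanks. The summit share thus moved by few points over the whole range of the members, with overlapping intervals between neighbouring quintiles. Just above the limit, the weakest quintile of distal IDR summits (538) had 23.8% at summits and 14.5% in flanks, and the strongest quintile had 40.3% and 15.4%. Members with the poorest support had the word as well. The 288 in no replicate peak had it at 22.9% of summits (interval 18.2 to 28.2) and 14.9% of flanks, and the 5738 with a q-value over 0.05 at 20.6% and 15.8%.

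**Figure D3:**
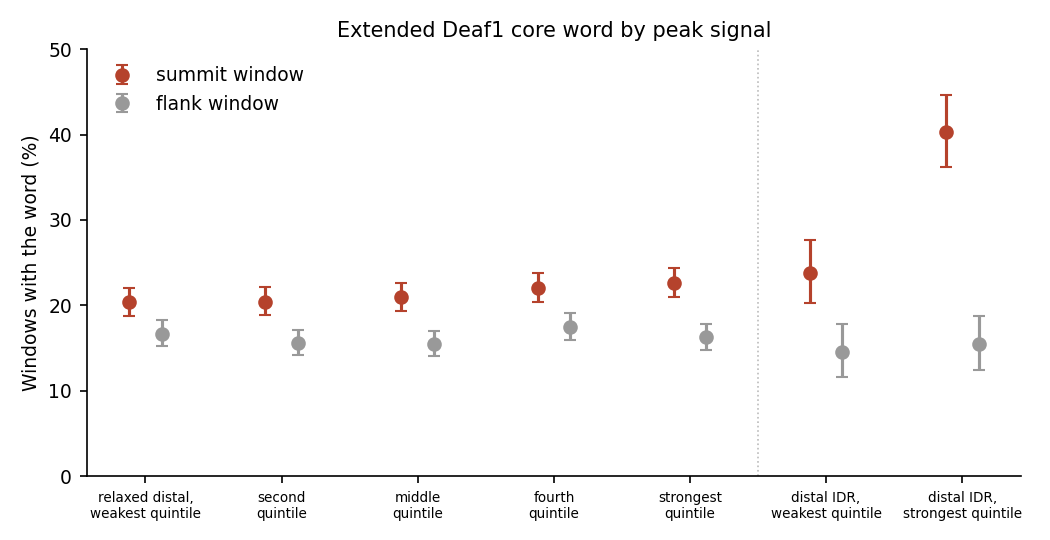
Share of windows (%) with the extended Deaf1 core word at summits (red) and in flanks 300 bp to the right (grey), by quintile of signal, with 95% Clopper-Pearson intervals. Summit shares ran between 20.4% and 22.6% over the quintiles of relaxed distal peaks and reached 40.3% in the strongest quintile of distal IDR summits.

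Members with several words were few and of higher signal. No TTCGG lay within 50 bp of 9382 members, 1 word lay at 2097, 2 words at 365 and at least 3 at 75. The median signal of these classes was 79.0, 79.1, 89.8 and 125, so a single word went with no higher signal. All 3 replicates held 51.8%, 53.1%, 54.8% and 60.0% of them.

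The excess depended on the order of the letters. Of the 30 words made of the letters of TTCGG, with reverse complements merged, TTCGG itself had the highest excess, followed by GTTCG with 3.36 points. The 11 others with CG averaged 1.30 points and the 18 without CG −0.424. The core TTCG was at 57.8% of summits and 53.5% of flanks (exact McNemar test, adjusted p = 9.8e-11).

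Of the 16 listed words 4 (25%) were more frequent at summits and 3 (18.8%) less frequent at an adjusted p under 0.05. Beside the Deaf1 words, GAGAG, which the GAGA factor binds, was at 13.6% of summits and 11.8% of flanks (exact McNemar test, adjusted p = 0.00014). At distal IDR summits it was at 20.4% and 12.9%. In the replicates' lists its excess was 1.75, 1.76 and 2.29 points at relaxed peaks, against 7.09, 6.31 and 7.16 points at distal peaks touching an IDR interval. At the members its highest bin, 2.38 per 1000 positions, lay 25 bp to the right of the summit. In the relaxed lists of replicates 1, 2 and 3 it lay 50 bp to the left, 25 bp to the right and 25 bp to the left. The side of the highest bin was thus not shared by the replicates. The repeat CACACA was at 12.2% of summits and 11.2% of flanks (exact test, adjusted p = 0.030). It was at 8.30% of distal windows, so its flanks too were above the distal level, and at distal IDR summits it was at 11.1% against 12.1% in flanks.

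The words found less often at summits than in flanks are bound by developmental factors. TGGGAA, the site of the Notch effector Su(H), was at 6.03% of summits and 7.35% of flanks (exact test, adjusted p = 0.00017). Over distal windows it was at 6.04%, so the summits were at the distal level and the flanks above it. The homeodomain word TAATTA was at 6.26% and 7.15% (exact test, adjusted p = 0.021), and TAATCC, bound by Bicoid, at 2.41% and 2.91% (exact test, adjusted p = 0.041). Their distal levels were 6.75% and 3.31%. The words of Zelda, AP-1, Grainy head, Pho, ETS factors and bHLH factors did not pass, with adjusted p of 0.13 or more. Nor did the promoter-linked words of DREF and BEAF-32: TATCGAT was at 0.956% of summits and 0.965% of flanks, against 6.49% and 2.16% at relaxed promoter peaks.

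Across all 2080 6-mers, words with CG were called higher at the summits more often than lower, and words without CG the reverse. 150 of the 6-mers (7.21%) were more frequent at summits and 126 (6.06%) less frequent, by the exact McNemar test with Benjamini-Hochberg adjustment at 0.05. Of the 604 words with CG 99 were higher and 2 lower, and of the 1476 without CG 51 were higher and 124 lower. The direction was the same in all 3 replicates' lists for 146 of the higher and 122 of the lower words. The pooled list shares reads with the replicates, so this is a description and no separate support. Words that did not pass could also keep their direction in all 3, such as AACAAA at 18.8% of summits and 18.7% of flanks. The share over all 6-mers is not given here. With the flank on the left side 87 higher and 62 lower words passed, of which 68 and 44 were shared with the right side.

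The word with the lowest p was GCCGAA, at 6.90% of summits and 4.56% of flanks (exact test, adjusted p = 1.2e-11). It contains the reverse complement of TTCGG, as does CCGAAG at 4.63% and 2.94%. Next was AGCCGA at 6.12% and 4.06%. CGACGA, which lacks TTCG, was at 4.405% and 2.76%. The rest of the 10 higher words of lowest p contain CG, such as ACCCGA at 3.54% and 2.11% and CTCGGC at 5.03% and 3.47%. Of the 48 words that contain TTCG 25 were higher and none lower. The most strongly lower word was AATTGC, at 7.74% of summits and 10.3% of flanks (exact test, adjusted p = 3.8e-09), followed by AATGCA at 7.24% and 9.57% and ATTGCA at 5.74% and 7.88%. Distal IDR summits had 129 higher and 72 lower words, of which 77 and 30 were called in the same direction at the relaxed peaks.

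Base composition had a narrow dip at the summit inside a broader rise. The mean G+C content was 42.6% at the summit, 43.3% and 43.5% at 100 bp on the left and right, and 41.3% and 40.8% at 500 bp, against 41.5% over distal windows. AT-rich windows were also more frequent at the summit than beside it. Windows with at most 30 G or C bases in 101 made up 14.1% at the summit (1681 members), 10.2% and 8.72% at 100 bp, and 13.9% of distal windows. In the replicates' relaxed lists the share was 12.2%, 15.3% and 13.1% at the summit, against 9.33%, 11.5% and 10.1% at 100 bp to the left.

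Distal IDR summits had 19.8% of such windows at the summit and 8.52% and 8.33% at 100 bp. In the replicates' lists, distal peaks touching an IDR interval had 14.6%, 16.3% and 14.7% at the summit, a smaller gap. The relaxed peaks differed from them by −1.68 ± 0.666 points (SD, n = 3, exact sign-flip permutation test, p = 0.25, the smallest possible). TTCGG was at 4.997% of the AT-rich summits and 16.2% of their flanks, and at 24.0% of the other summits and 16.3% of their flanks. TTCGG is itself rich in G and C and the classes were made on the summit window, so this split lowers the first summit share and raises the second, and neither pair is a result. The AT-rich members had a median signal of 93.6, against 77.5 for the others.

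Relaxed distal peaks lay in introns and were sparse in coding sequence. Introns held 7386 of the summits (62.0%, interval 61.1 to 62.8), while they make up 48.1% of distal bases. Coding exons held 139 (1.17%) against 10.4% of bases, and 3′ UTRs 151 (1.27%) against 4.11%. Intergenic sequence held 3856 (32.4%) against 35.4%, and exons of non-coding genes 334 (2.80%) against 1.75%. Of the intronic summits 3997 (54.1%) were in a first intron, which makes up 36.0% of distal intronic bases, and 72.2% lay inside the gene with the nearest start. The replicates' own lists had 62.5%, 60.5% and 62.4% in introns.

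The share in introns was much like that of reproducible sites. Distal peaks touching an IDR interval had 61.0%, 61.2% and 60.9% in introns, and the relaxed peaks differed from them by 0.754 ± 1.27 points (SD, n = 3, exact sign-flip permutation test, p = 0.50). Of 9 such quantities compared over the replicates, this was the only one whose difference had no common direction in the 3. Each of the other 8 had an exact sign-flip p = 0.25, the smallest possible, and 0.28 after adjustment over the 9.

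Few of the peaks were in repeats. Annotated transposable elements held 20 summits (0.168%), while they cover 8.13% of distal bases, and 10 distal IDR summits (0.372%). Soft-masked bases made up 17.9% of the members' windows, against 23.1% of distal bases. How reads in repeats were mapped is not given in the sources used here.

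Density was level up to 10000 bp from genes' starts and fell beyond, most in the farthest bin. The members had 133 summits per Mb of distal sequence and the distal IDR summits 29.97. Between 2000 and 5000 bp from a start there were 159 per Mb, between 5000 and 10000 bp 160, between 10000 and 20000 bp 146, between 20000 and 50000 bp 111, and beyond that 11.4. Distal IDR summits declined earlier, with 40.7, 35.6, 30.4, 19.5 and 1.39 per Mb, the last from 15 summits. The number of members per IDR summit was therefore 3.91 in the nearest bin and 5.72 between 20000 and 50000 bp. The median distance to a start was 6579, 6694 and 6599 bp for the relaxed peaks of replicates 1, 2 and 3, against 5875, 5951 and 5916 bp for their distal peaks touching an IDR interval, a difference of 710 ± 30.4 bp (SD, n = 3).

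The members also lay close to each other. The median distance to the next member was 814 bp, and 57.9% had another within 1000 bp. An IDR summit was farther away, at a median of 4422 bp, and lay within 1000 bp of 654 members (5.49%).

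The X chromosome had more of the weak peaks per Mb than the autosomes. It had 167 per Mb of distal sequence, followed by 145 on 2L, 131 on 3L, 120 on 3R and 116 on 2R, while the small chromosome 4 had 13.97 from 14 members. The density of X over that of 2L, 2R, 3L and 3R together was 1.31. It was 1.28, 1.26 and 1.19 in the replicates' relaxed lists and 1.01, 0.990 and 1.01 in their distal peaks touching an IDR interval. The difference was 0.241 ± 0.0539 (SD, n = 3, exact sign-flip permutation test, p = 0.25, the smallest possible).

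The excess on X was greatest where the signal was weakest. From the weakest quintile to the strongest the X ratio was 1.504, 1.41, 1.27, 1.31 and 1.10. By support it was 1.71 for members in no replicate peak (288, of which 78 on X), then 1.44, 1.29 and 1.28 for those in 1, 2 and 3. It was 1.31 outside transposable elements and 1.23 within 50000 bp of a start. These are densities of called peaks: the coverage of the control and the mappability of each arm were not used here, and their part in the ratio was not tested. The TTCGG excess was no higher on X, with 20.2% of summits and 16.1% of flanks. Among the arms 2R had the highest, with 24.6% and 16.2%.

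**Figure D4:**
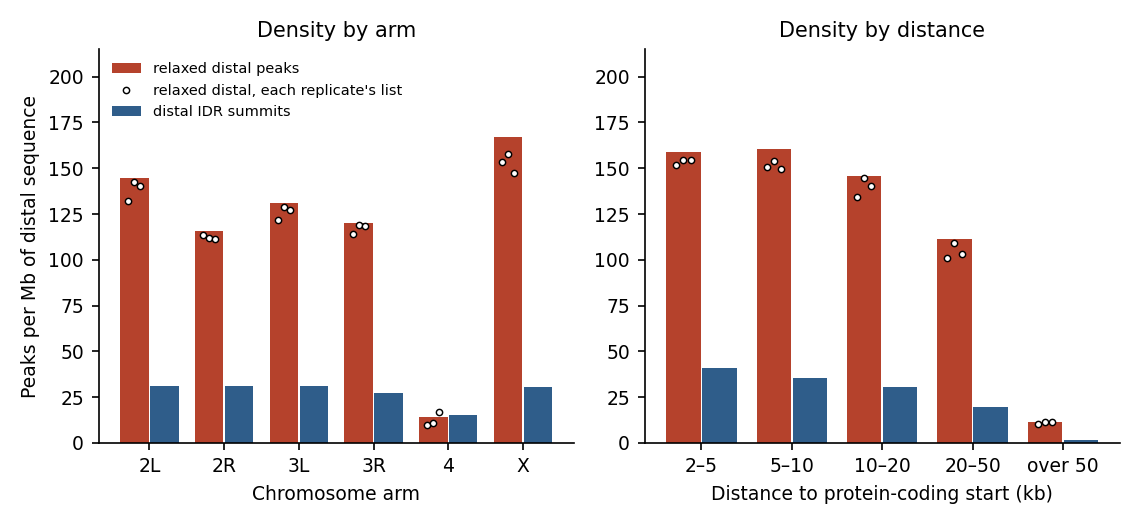
Peaks per Mb of distal sequence by chromosome arm (left) and by distance to the nearest protein-coding start in kb (right). Bars show relaxed distal peaks (red) and distal IDR summits (blue), and circles show relaxed distal peaks of each replicate's own list. The X had 167 relaxed distal peaks per Mb, against 116 to 145 on 2L, 2R, 3L and 3R.

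Starts of non-coding genes, which the rule did not use, were more frequent among the members than their share of distal bases. A summit lay within 500 bp of such a start for 379 members (3.18%, interval 2.87 to 3.51), while these windows cover 2.07% of distal bases. Distal IDR summits had 192 (7.14%). In the replicates' lists the share was 3.37%, 3.25% and 3.20% at relaxed peaks, against 6.84%, 6.69% and 6.78% at distal peaks touching an IDR interval. Long non-coding RNAs accounted for 269 members (2.26%, against 1.38% of bases), snRNAs for 7, snoRNAs for 8, miRNAs for 14 and pseudogenes for 4.

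Transfer RNA genes had the highest ratio to their bases among the kinds with at least 10 members. Their starts had 54 members (0.453%, interval 0.341 to 0.591) against 0.140% of bases, a ratio of 3.24, and 13 distal IDR summits (0.484%). The 54 lay nearest to 45 different tRNA genes, had a median signal of 88.5, and all 3 replicates held 31 of them (57.4%). The word TTCG, which also occurs in the T arm of many tRNA genes, was at 36 of the 54 summits (66.7%, interval 52.5 to 78.9), and at 33 of their flanks (61.1%), while all members had it at 57.8% of summits. TTCGG was at 11 of them (20.4%), much as at all members.

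The number of weak peaks per gene varied widely. Of 13945 protein-coding genes 2586 (18.5%) had at least 1 member nearest to their starts, and 296 had 10 or more. Distal sequence was nearest to 9113 genes, and 2093 of these (23.0%) had a density above the overall 133 per Mb. The 10 genes with the most held 433 members (3.63%): hth, fz2, jing, Rbp6, CG43188, br, Eip75B, Tet, olf413 and bru3.

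The gene with the most members was hth, the TALE homeobox partner of Hox proteins, with 57 and 19 distal IDR summits. The replicates' own lists placed 54, 54 and 58 relaxed peaks there. Next was fz2, which encodes a receptor for Wnt ligands, with 52 members and 7 distal IDR summits. It had 43, 42 and 43 in the replicates, and at 630 per Mb it was the most densely covered of the 10.

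Then came jing, a zinc-finger gene of border cell migration, with 46 members and 44, 35 and 40 in the replicates, and 75 members lay inside its body. The gene body with the most was that of kirre, an immunoglobulin-type adhesion gene of myoblast fusion, with 94 over 305 kb of distal sequence. It was looked up after the values were seen.

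The balance of weak and reproducible sites differed among these genes. Eip75B, an ecdysone-induced nuclear receptor, had 39 members and 33 distal IDR summits. By contrast olf413 had 38 members and no distal IDR summit, with 32, 31 and 37 relaxed peaks in the replicates. Rbp6, an RNA-binding protein of the Musashi family, had 43 members and 2 distal IDR summits. The CELF-type RNA-binding gene bru3 had 37 and 1. CG43188 had 42 and 1, but no member lay inside its body, so these were only nearest to its start. The zinc-finger gene br, an early ecdysone-response gene, had 41 members and 5 distal IDR summits, with 41, 34 and 30 in the replicates. Tet, a dioxygenase-family gene, had 38 and 5.

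**Figure D5:**
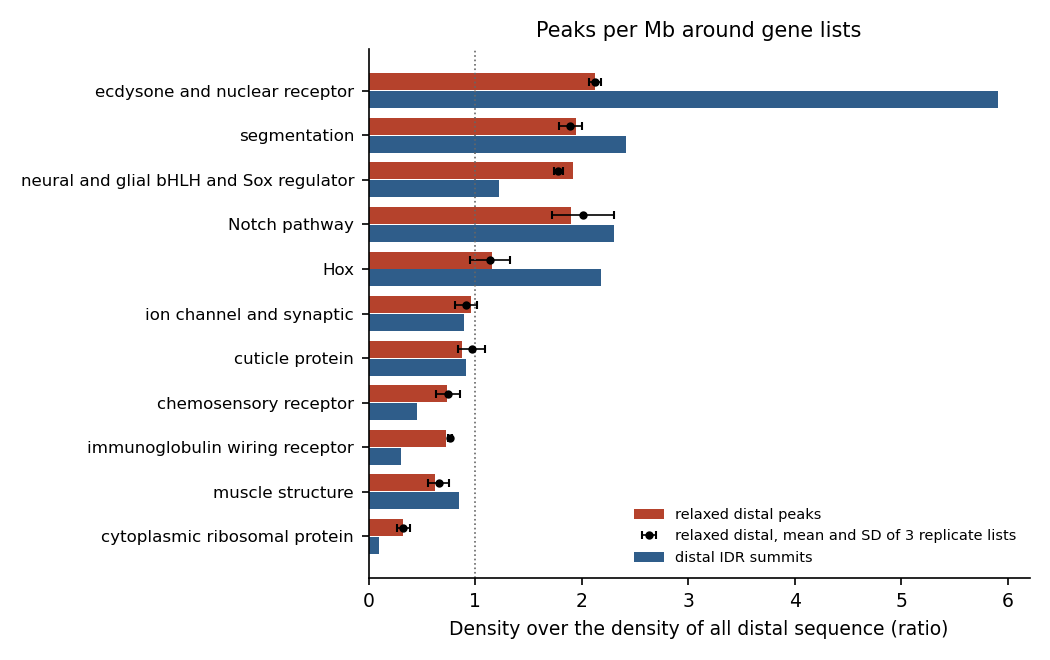
Peaks per Mb of distal sequence around 11 gene lists, divided by the density over all distal sequence, for relaxed distal peaks (red bars) and distal IDR summits (blue bars). Points and lines show mean and SD of the ratio in the 3 replicates' own relaxed lists. Ecdysone and nuclear receptor genes stood at 2.12 for relaxed distal peaks and 5.91 for distal IDR summits.

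The weak peaks were denser around genes of ecdysone and nuclear receptors, segmentation, Notch signalling and neural and glial regulators, with 1.90 to 2.12 times the overall density. Each distal base was assigned to the gene of its nearest protein-coding start, and a list's density was divided by that of all distal sequence. All distal sequence includes the part over 50000 bp from a start, which had 11.4 members per Mb. How this part bears on the ratios was not tested. Of the 9113 genes with distal sequence 23.0% were above the overall density, and the median gene had 0 members per Mb. The ratio is a description with no test. For ecdysone and nuclear receptor genes it was 2.12 from 172 members, and 12 of 23 genes with distal sequence were above the mean density. The replicates' lists gave 2.12, 2.18 and 2.07, against 6.03, 6.02 and 5.61 for distal peaks touching an IDR interval. Most of the members were at br with 41, Eip75B with 39 and the nuclear receptor Hr4 with 20.

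Segmentation genes had a ratio of 1.95 from 154 members, with 19 of 33 genes above the mean density and 1.90 ± 0.110 over the replicates (SD, n = 3). Inside gene bodies the ratio was 2.96. They were led by hry, the pair-rule repressor hairy, with 17, and by the engrailed partner inv and the Wnt ligand wg with 13 each. The Notch pathway had 1.90 from 62 members, with 8 of 22 genes above the mean, and 2.01 ± 0.292 over the replicates. Its median gene had 40.9 per Mb, below the overall 133 but above the median of 0 over all genes with distal sequence. Inside gene bodies the ratio was 1.28. Among its genes mam, the Mastermind coactivator, had 22 members, and the ligands Ser and Delta 10 and 6.

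Neural and glial bHLH and Sox regulators reached 1.92 from 104 members, with 19 of 32 genes above the mean, and 1.78 ± 0.0431 over the replicates (SD, n = 3). Their ratio for distal IDR summits was lower, at 1.23, the reverse of the other 3 lists. SoxN, a Sox factor of the early nervous system, had 19 members and no distal IDR summit, with 13, 18 and 17 relaxed peaks in the replicates. The Olig-family bHLH gene Oli had 13 and 1, and the neuroblast factor pros had 10 and 4.

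Hox genes, to which Deaf1's name refers, had a ratio of 1.16 from 59 members, and 1.14 ± 0.188 over the replicates (SD, n = 3), so it did not stand apart from 1 beyond its spread. It was 0.943 over the 5959 members of highest signal. For distal IDR summits it was 2.18. Antp had 26 members, abd-A 13 and pb 7, with 19, 26 and 29 relaxed peaks at Antp in replicates 1, 2 and 3.

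Ion channel and synaptic genes and cuticle protein genes did not stand apart from 1 beyond the spread of the replicates. Ion channel and synaptic genes had a ratio of 0.963 from 124 members and 0.914 ± 0.102 over the replicates (SD, n = 3). Of these genes 21 of 43 were above the mean density, against 23.0% of all genes with distal sequence. Inside gene bodies their ratio was 0.611. They were led by the acetylcholine receptor subunit nAChRalpha6 with 12, and by the GABA receptor Rdl and the potassium channel Sh with 10 each. Cuticle protein genes had 0.874 from 17 and 0.968 ± 0.126 over the replicates, with 5 of 38 genes above the mean. Of the 17, Cpr35B had 7.

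The remaining lists had a lower density than distal sequence as a whole. Chemosensory receptor genes had 0.738 from 100 members and 0.746 ± 0.109 over the replicates (SD, n = 3), with 14 of 120 genes above the mean. Of these members, Or98a had 21, Or67d 15 and Ir20a 13.

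Immunoglobulin wiring receptor genes had 0.729 from 202 members and 0.764 ± 0.0193 over the replicates, and 0.304 for distal IDR summits. Single genes varied, since 24 of 56 were above the mean density, against 23.0% of all genes with distal sequence. The list's median gene had 101.7 per Mb, against 0 over all genes with distal sequence. DIP-gamma, a partner of Dpr proteins, had 21 members and was the list's highest, followed by beat-IIIc with 20 and beat-IIa with 11. Muscle structure genes had 0.623 from 36 and 0.658 ± 0.0963 over the replicates, with 3 of 23 genes above the mean and 0.360 inside gene bodies. Their members included 10 at Zasp52 of the Z-disc, 6 at the nesprin-type gene Msp300 and 5 at the actin gene Act57B. Lowest were cytoplasmic ribosomal protein genes with 0.320 from 15 members and 0.328 ± 0.0592 over the replicates (SD, n = 3), with 6 of 35 genes above the mean. RpL40 had 6 of them and RpS7 had 2.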

How the data were processed

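ChIP-seq of Deaf1-GFP was measured in 3 biological replicates of 1 group. The authors deposited peak lists on dm6, per the labels. The file headers say that the lists come from single replicates' alignments and from all of them pooled, with a control alignment, and that the IDR set was derived from these lists. The peak signal in the deposited lists is the caller's own value, not scaled between lists, and it was used to rank peaks within a list and, divided by the list's median, to set replicates side by side. The −log10 q-value was deposited in the column that the narrowPeak layout gives to it. The sources used here name no aligner, caller or IDR threshold, and read depth is unknown. Nothing shows that the replicates came from separate parental flies, so p-values and SDs over replicates refer to these samples only. The SDs measure the spread between them. The exact sign-flip p is 0.25 whenever all 3 differences share a direction, whatever their spread.

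From these lists the members were found as described, with 19607 protein-coding TSSs of Ensembl release 115. Summit windows of 101 bp were read from the RefSeq genome of the same assembly, and words were sought on both strands. Summit and flank were compared by exact two-sided McNemar tests with Benjamini-Hochberg adjustment, after the script had been tested on simulated data. Each replicate's own list was treated by the same rule, and replicate means were compared by exact sign-flip permutation tests. A summit in several annotations went to coding exons first, then UTRs, then non-coding exons, then introns. Shares carry 95% exact Clopper-Pearson intervals. Genes and words were named from the nearest genes of the 10 strongest and 5 weakest members, the 6 members with most TTCGG, the 10 genes with most members, up to 3 genes per list, and the 10 higher and 5 lower 6-mers of lowest p. Alternatives varied the windows, flanks, distances, overlap and replicates, and 2 settings of the X ratio were added after the values were seen. The members and lists were chosen with earlier results of these data known. Python 3.11.15 was used with numpy 2.4.6, pandas 2.3.3 and scipy 1.17.1.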

Additional observations from a re-analysis of the deposited data

How the results depend on the processing

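The TTCGG excess and its difference from IDR sites kept their direction under each alternative run. The share of members in all 3 replicates was 48.7% with a reciprocal overlap of 50% and 32.3% with a replicate summit within 100 bp. In both of the remaining replicates it was 60.8% to 63.7% when 1 was left out. Counting over 5000 bp from a start left 7470 members, and keeping those of higher signal left 5959. Non-coding starts had 1.95% within 250 bp and 5.72% within 1000 bp. The lower 6-mers numbered 81 over those 5959, and with the left flank 87 were higher and 62 lower. The intergenic share was 30.8% over 1000 bp and 33.9% over 5000 bp. The X ratio was 1.20 over the 5959 and 1.23 within 50000 bp of a start. The cause of these shifts was not tested, apart from the windows and distances that define the counts. Counted inside gene bodies, the density ratio was 2.96 for segmentation, 1.92 for ecdysone and nuclear receptor, 1.54 for neural and glial regulator, 1.28 for Notch, 0.792 for immunoglobulin wiring, 0.611 for ion channel and synaptic and 0.360 for muscle genes. It was 0 for chemosensory, cuticle and ribosomal protein genes. No paired analysis was possible because the labels give 1 group, so no sample has a partner in another group. Comparisons within a replicate or a peak are those given with their tests. Read depth is unknown, so how far weak peaks exceed background reads cannot be given.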
